A study of Mus musculus with 11 samples.

Results

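A set of 10 heat shock genes was followed through mouse embryos made by injecting a round spermatid (ROSI) or a mature sperm (ICSI) into the oocyte. The 10 members were the entries of the all-genes expression table whose gene name was Hspa1a, Hspa1b, Hspa8, Hspa5, Hsph1, Hsp90aa1, Hsp90ab1, Bag5, Hsf1 or Hsf2, out of 49585 genes in the table. All 10 were found once each, and all 10 passed the filter on low values, as did 21938 genes in all. The members were taken by gene name, and were chosen with earlier results of these data known.

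The embryos were of the C57BL/6 strain, with no transgene or deletion named in the labels. The groups were ROSI 2-cell embryos (3 libraries), ICSI 2-cell embryos (3 libraries), ROSI zygotes (2 libraries) and ICSI zygotes (3 libraries). Total RNA was extracted from embryos, and 1 ng was used for each strand-preserving SMART-seq library, a method for very small amounts of RNA. ROSI embryos were activated with strontium chloride in calcium-free CZB medium and then cultured in KSOM, whereas ICSI embryos were cultured in KSOM. The paternal cell and the activation treatment therefore cannot be told apart in any ROSI and ICSI comparison. The labels give neither the embryos pooled per library nor their collection times, and do not say whether replicates came from separate cultures. The p-values below therefore measure the spread between these libraries, which may be technical.

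Heat shock proteins are chaperones that bind unfolded or partly folded proteins and use ATP to help them fold. HSP70 proteins act with HSP40 co-chaperones and with nucleotide exchange factors that release the bound client, and HSP90 proteins finish the folding of kinases and receptors. The heat shock factors are transcription factors that bind repeated GAA and TTC motifs in front of such genes. In mouse embryos, HSP70 genes are known to be among the first transcribed after fertilization, and Hsf1 is known as a maternal-effect gene whose product acts in the oocyte.

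Expression is given in TPM, a transcript abundance that corrects for gene length and sums to 1000000 in every library. Reads recovered from the TPM values came to 20.5 to 23.0 M (M, 1000000) in ROSI 2-cell embryos and 8.49 to 32.9 M in ICSI 2-cell embryos. They came to 30.4 and 86.0 M in ROSI zygotes and 70.8 to 83.0 M in ICSI zygotes. All 8 oocyte and early embryo markers reached 1 TPM in every library, and the 10 cumulus cell markers summed to between 2.79 and 6.75 TPM in each. The 11 round spermatid markers summed to 36.4 to 56.9 TPM in ROSI 2-cell embryos and 10.1 to 15.1 TPM in ICSI 2-cell embryos, where Smcp and Tnp2 were at 0. Their sums were 85.6 to 163 TPM in ROSI zygotes and 24.8 to 30.7 TPM in ICSI zygotes, where Smcp was at 0. Replicate 1 of the ROSI zygotes and replicate 1 of the ICSI zygotes held 0.473% and 0.454% of TPM in small nuclear and nucleolar RNAs. The other 3 zygote libraries held 1.46% to 2.36%.

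The inducible HSP70 genes Hspa1a and Hspa1b encode nearly the same cytosolic chaperone. Hspa1a stands at chr17:34969190-34972156 and Hspa1b at chr17:34956436-34959238, both on the minus strand of mm10. Their promoters are shown because they are almost a copy of each other, beside those of Hspa5 and Hsph1, which hold matches to stress elements. Each line is the RefSeq sequence (GRCm38.p6) of the 250 bases before the annotated start, read 5′ to 3′ on the gene's strand. The windows lie at chr17:34972157-34972406 (minus) for Hspa1a, chr17:34959239-34959488 (minus) for Hspa1b, chr2:34771840-34772089 (plus) for Hspa5 and chr5:149636337-149636586 (minus) for the outer of the annotated starts of Hsph1. Capitals mark the matches described after the lines.
Hspa1a: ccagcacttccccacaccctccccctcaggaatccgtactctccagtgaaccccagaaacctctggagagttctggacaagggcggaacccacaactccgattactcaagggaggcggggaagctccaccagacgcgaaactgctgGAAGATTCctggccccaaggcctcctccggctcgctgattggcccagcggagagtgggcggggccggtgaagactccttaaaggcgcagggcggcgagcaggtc
Hspa1b: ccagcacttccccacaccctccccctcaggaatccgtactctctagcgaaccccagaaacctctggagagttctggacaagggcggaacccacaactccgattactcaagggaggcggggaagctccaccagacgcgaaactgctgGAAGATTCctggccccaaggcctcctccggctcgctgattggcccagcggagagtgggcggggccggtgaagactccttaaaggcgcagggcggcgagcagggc
Hspa5: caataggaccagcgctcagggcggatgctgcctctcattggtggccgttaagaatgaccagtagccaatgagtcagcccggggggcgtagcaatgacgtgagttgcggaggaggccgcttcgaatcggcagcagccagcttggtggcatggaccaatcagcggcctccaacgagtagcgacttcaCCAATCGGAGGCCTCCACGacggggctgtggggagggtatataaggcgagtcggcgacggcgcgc
Hsph1: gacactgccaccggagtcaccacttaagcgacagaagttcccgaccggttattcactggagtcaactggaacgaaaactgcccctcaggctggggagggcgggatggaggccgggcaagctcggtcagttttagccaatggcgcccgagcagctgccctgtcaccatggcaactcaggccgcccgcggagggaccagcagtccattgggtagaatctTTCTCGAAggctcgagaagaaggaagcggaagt
The Hspa1a and Hspa1b windows were identical at 247 of 250 bases. Both held GAAGATTC, a pair of heat shock element units, 104 to 97 bases before the start, and the Hsph1 window held TTCTCGAA 33 to 26 bases before the start. The pair was searched as GAANNTTC or TTCNNGAA, which covers both strands, and 12.84% of 32851 RefSeq windows of this length held it. A run of 3 units, GAANNTTCNNGAA or TTCNNGAANNTTC, was held by 0.4657% of windows and by none of the members' windows. The Hspa5 window held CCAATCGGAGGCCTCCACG 65 to 47 bases before the start. This is a match to the endoplasmic reticulum stress element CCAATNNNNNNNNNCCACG, searched on both strands and held by 0.1126% of windows. The windows of Bag5 and Hsf2 held none of the 3 patterns, and 6 of the 10 members had a RefSeq window. A match describes letters only.

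Hspa1a had 13.3, 10.4 and 11.2 TPM in ROSI 2-cell embryos and 16.0, 14.9 and 13.0 TPM in ICSI 2-cell embryos. It had 1.48 and 1.08 TPM in ROSI zygotes and 2.04, 0.900 and 1.07 TPM in ICSI zygotes. The 2-cell libraries all lay above the zygote libraries, and ROSI and ICSI libraries overlapped at both stages. Hspa1b had 17.5, 21.7 and 24.6 TPM in ROSI 2-cell embryos, against 24.7, 29.7 and 23.8 TPM in ICSI 2-cell embryos. It had 9.59 and 12.0 TPM in ROSI zygotes and 9.90, 6.26 and 7.59 TPM in ICSI zygotes. Hspa1b, too, was higher in every 2-cell library than in any zygote library, and ROSI and ICSI overlapped within each stage. Of the 50-base words of Hspa1a transcripts, 60.35% also occur in transcripts of another gene, and of Hspa1b 62.31%, so reads could have been split between the 2 genes. Hspa1a exons also overlap those of Gm20481 on the opposite strand over 564 bases, and the strand setting of the counting is not given in the sources used here. Single values of these 2 genes are therefore uncertain, and their sum was 30.8, 32.2 and 35.8 TPM in ROSI 2-cell embryos and 40.7, 44.6 and 36.7 TPM in ICSI 2-cell embryos. For the sum, the 3 ROSI 2-cell libraries were all below the 3 ICSI 2-cell libraries, the closest values being 35.8 and 36.7 TPM. The sum was not tested, and 27.3% of all genes tested had no overlap in this comparison.

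Hspa8, which encodes the constitutive cytosolic HSP70, had 254, 289.8 and 236 TPM in ROSI 2-cell embryos and 196, 211 and 217 TPM in ICSI 2-cell embryos. Every ROSI 2-cell library was above every ICSI 2-cell library. In zygotes it had 100.05 and 102 TPM after ROSI and 106, 94.0 and 122 TPM after ICSI, and these overlapped. Of its 50-base words, 38.58% also occur in transcripts of other genes, mainly Gm15459, so its level is uncertain.

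Hspa5 encodes BiP, the HSP70 of the endoplasmic reticulum and the best-known target of the unfolded protein response. It had 171, 211 and 209 TPM in ROSI 2-cell embryos and 109, 168 and 148 TPM in ICSI 2-cell embryos, so the groups did not overlap. It had 86.1 and 93.5 TPM in ROSI zygotes and 108, 104 and 118 TPM in ICSI zygotes, again without overlap but with ROSI below ICSI. The lowest ICSI 2-cell value came from replicate 1, the shallowest library. Hsph1, an HSP110 protein that exchanges nucleotides on HSP70, ranged over 83.9 to 101 TPM in ROSI 2-cell embryos and 76.2 to 86.9 TPM in ICSI 2-cell embryos. Its range was 63.3 to 65.0 TPM in ROSI zygotes and 71.1 to 77.8 TPM in ICSI zygotes. The Hsph1 groups overlapped in 2-cell embryos and not in zygotes.

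Bag5 encodes a BAG-domain protein that exchanges nucleotides on HSP70, and lies at chr12:111709488-111713257 on the minus strand. It had 124, 136 and 140.4 TPM in ROSI 2-cell embryos, against 174, 193 and 185 TPM in ICSI 2-cell embryos. It had 17.8 and 15.7 TPM in ROSI zygotes, against 11.7, 9.95 and 12.5 TPM in ICSI zygotes. The groups were apart at both stages, with ROSI below ICSI in 2-cell embryos and above it in zygotes. None of its 50-base words occurred in transcripts of another gene.

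The HSP90 genes differed in level and in pattern. Hsp90aa1, the stress-inducible form, had 428, 439.6 and 428 TPM in ROSI 2-cell embryos and 436, 498 and 487 TPM in ICSI 2-cell embryos. It had 2111 and 1907 TPM in ROSI zygotes and 2281, 2639 and 2744 TPM in ICSI zygotes, where its mean ranked 27th and 20th among protein-coding genes at 1 TPM or more. Every zygote library was several times any 2-cell library, ROSI zygotes lay below ICSI zygotes, and the 2-cell groups overlapped. Hsp90ab1, the constitutive form, had 885, 893 and 837 TPM in ROSI 2-cell embryos and 575, 684 and 601 TPM in ICSI 2-cell embryos. It had 663 and 699 TPM in ROSI zygotes and 608, 655 and 715 TPM in ICSI zygotes. Only the ROSI 2-cell libraries stood apart from the other libraries, which all lay at or below 715 TPM. The mean level of Hsp90ab1 ranked 26th among protein-coding genes in ROSI 2-cell embryos and 55th in ICSI 2-cell embryos. Of the 50-base words of Hsp90aa1, 47.49% also occur in transcripts of other genes, mainly Gm12346, and of those of Hsp90ab1 3.438%, so the Hsp90aa1 level is the less certain.

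Hsf1, the main activator of the heat shock response, had 158, 164 and 178 TPM in ROSI 2-cell embryos and 195, 227 and 200.0 TPM in ICSI 2-cell embryos. Every ROSI 2-cell library was below every ICSI 2-cell library. The zygote ranges overlapped, at 125 to 157 TPM after ROSI and 129 to 171 TPM after ICSI. Hsf2, a heat shock factor known mainly from development and gametogenesis, had 15.2, 12.8 and 18.2 TPM in ROSI 2-cell embryos and 9.09, 7.69 and 8.40 TPM in ICSI 2-cell embryos. It had 7.96 and 5.50 TPM in ROSI zygotes and 5.01, 3.85 and 4.98 TPM in ICSI zygotes. ROSI was above ICSI without overlap at both stages.

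**Figure D1:**
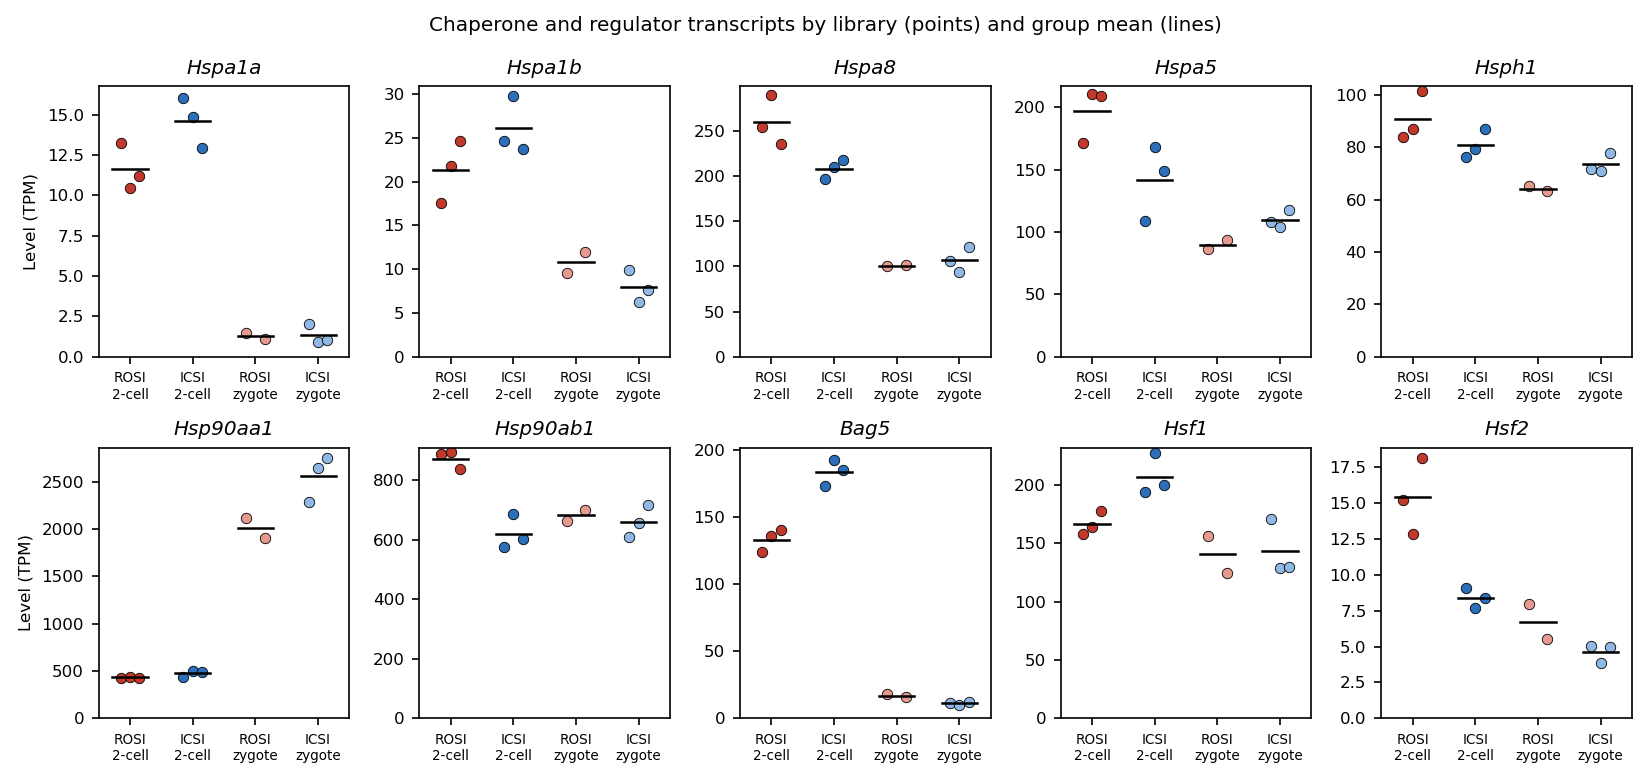
TPM of each of the 10 genes on the vertical axis, starting at 0, for ROSI 2-cell, ICSI 2-cell, ROSI zygote and ICSI zygote libraries; points are libraries and lines group means. Bag5 is at 124 to 140.4 TPM in ROSI 2-cell embryos against 15.7 to 17.8 TPM in ROSI zygotes, while Hsp90aa1 is at 428 to 439.6 TPM against 1907 to 2111 TPM.

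By group means, Bag5, Hspa1a, Hspa1b and Hsf1 were highest in ICSI 2-cell embryos. Hsf2, Hspa8, Hspa5, Hsph1 and Hsp90ab1 were highest in ROSI 2-cell embryos, and Hsp90aa1 in ICSI zygotes. For Bag5 the order was ICSI 2-cell, ROSI 2-cell, ROSI zygotes and ICSI zygotes, with no overlap between neighbours. For Hsf2 it was ROSI 2-cell, ICSI 2-cell, ROSI zygotes and ICSI zygotes, and the ranges of ICSI 2-cell embryos and ROSI zygotes overlapped. For Hsp90ab1 it was ROSI 2-cell, ROSI zygotes, ICSI zygotes and ICSI 2-cell, and the last 3 overlapped.

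Set against ICSI 2-cell embryos, ROSI 2-cell embryos had more Hsf2 and Hsp90ab1 and less Bag5. Hsf2 averaged 15.4 ± 2.68 TPM in ROSI and 8.40 ± 0.703 TPM in ICSI 2-cell embryos (SD, n = 3 each, here and for the next genes). Hsp90ab1 averaged 872 ± 30.4 TPM in ROSI and 620.2 ± 56.9 TPM in ICSI 2-cell embryos. Bag5 averaged 134 ± 8.47 TPM in ROSI and 184 ± 9.68 TPM in ICSI 2-cell embryos. The inducible HSP70 genes, Hsf1 and Hsp90aa1 had negative differences that did not pass the test, and that of Hsp90aa1 turned to 0.0080 after quantile normalization. Of the 10 members, 3 passed a Benjamini-Hochberg adjusted p of 0.05 in limma, where 9.51% of all genes tested did. Differences are given on the log2(TPM + 1) scale, which understates changes of low genes. Hsf2 rose by 0.79 (SE 0.17, limma adjusted p = 0.0191) and Hsp90ab1 by 0.49 (SE 0.093, limma adjusted p = 0.0129). Bag5 fell by 0.46 (SE 0.10, limma adjusted p = 0.0234). Each was higher, or lower, in 3 of 3 ROSI libraries than in any ICSI library.

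The other 7 members did not pass. Hspa5 had a difference of 0.49 (SE 0.15, limma adjusted p = 0.0685) and Hspa8 of 0.32 (SE 0.11, limma adjusted p = 0.0986). Hsf1 had a difference of -0.31 (SE 0.13, limma adjusted p = 0.161). These 3 did not overlap between ROSI and ICSI, and with Hsf2, Hsp90ab1 and Bag5 they made 6 of 10 members without overlap, where 27.3% of all genes tested had none. For Hspa1a the difference was -0.31 (limma adjusted p = 0.330) and for Hspa1b -0.29 (limma adjusted p = 0.335). Hsph1 had 0.16 (limma adjusted p = 0.302) and Hsp90aa1 -0.13 (limma adjusted p = 0.411). Over all genes, 1082 passed as higher and 1005 as lower in ROSI 2-cell embryos, and 1197 and 2023 after median-ratio scaling of the libraries.

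Sums of stage markers also differed in this comparison. The 7 markers of the 2-cell stage summed to 325 to 450 TPM in ROSI 2-cell embryos and 660.3 to 699.8 TPM in ICSI 2-cell embryos. The 8 oocyte markers summed to 799 to 958 TPM in ROSI 2-cell embryos and 1286 to 1307 TPM in ICSI 2-cell embryos. These libraries are bulk RNA, in which a difference in some embryos and a difference in all cannot be told apart, and the part of these markers in the result was not tested. When only the 2-cell groups were fitted, none of the 3 calls held (limma adjusted p = 0.071 for Hsf2, 0.0714 for Hsp90ab1 and 0.063 for Bag5), and 4668 genes had an unadjusted p under 0.05. In that fit only 49 of all genes tested passed as higher and 36 as lower. Without single libraries, Hsp90ab1 passed in 11 of 11 fits and Hsf2 in 10, the exception being ICSI 2-cell replicate 2 (limma adjusted p = 0.0597). Bag5 passed in 7 and was lost without ROSI 2-cell replicate 1 or 2 or ICSI 2-cell replicate 2 or 3 (limma adjusted p between 0.0551 and 0.0741).

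In zygotes, no member passed in ROSI against ICSI (limma), where 0.146% of all genes tested did, and 3 members had an unadjusted p under 0.05, where 6.35% of genes did. There was no overlap for 5 members, against 26.4% of all genes tested: Bag5 and Hsf2 were above ICSI, and Hspa5, Hsph1 and Hsp90aa1 below it. Bag5 averaged 16.7 ± 1.52 TPM in ROSI zygotes (SD, n = 2) and 11.4 ± 1.32 TPM in ICSI zygotes (SD, n = 3), a difference of 0.52 (SE 0.12, limma adjusted p = 0.142). Hsp90aa1 averaged 2009 ± 145 TPM in ROSI zygotes and 2555 ± 243 TPM in ICSI zygotes, a difference of -0.34 (SE 0.11, limma adjusted p = 0.385). Hsf2 had a difference of 0.45 (SE 0.19, limma adjusted p = 0.718).

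The zygote libraries were also compared within the sets that their small nuclear RNA share forms, 1 ROSI against 1 ICSI library poor in it and 1 ROSI against 2 ICSI libraries rich in it. Bag5 differed by 0.57 in the first set and 0.45 in the second, and Hsf2 by 0.58 and 0.27. Hsp90aa1 differed by -0.11 and -0.50, and Hspa1b by -0.04 and 0.72. As the ROSI and ICSI zygote libraries did not overlap for Bag5, Hsf2 and Hsp90aa1, their differences had to keep the same sign in both sets. The Hspa1b difference, where the libraries overlapped, changed sign. With the set as a block in the model, an alternative chosen after the data were seen, no member passed (limma adjusted p = 0.178 for Bag5 at 0.50, 0.415 for Hsp90aa1 at -0.33 and 0.705 for Hsf2 at 0.40). Bag5 passed after median-ratio scaling (difference 0.60, limma adjusted p = 0.0437) and after quantile normalization (0.55, limma adjusted p = 0.0366), and Hsp90aa1 passed with array weights (-0.39, limma adjusted p = 0.0489).

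**Figure D2:**
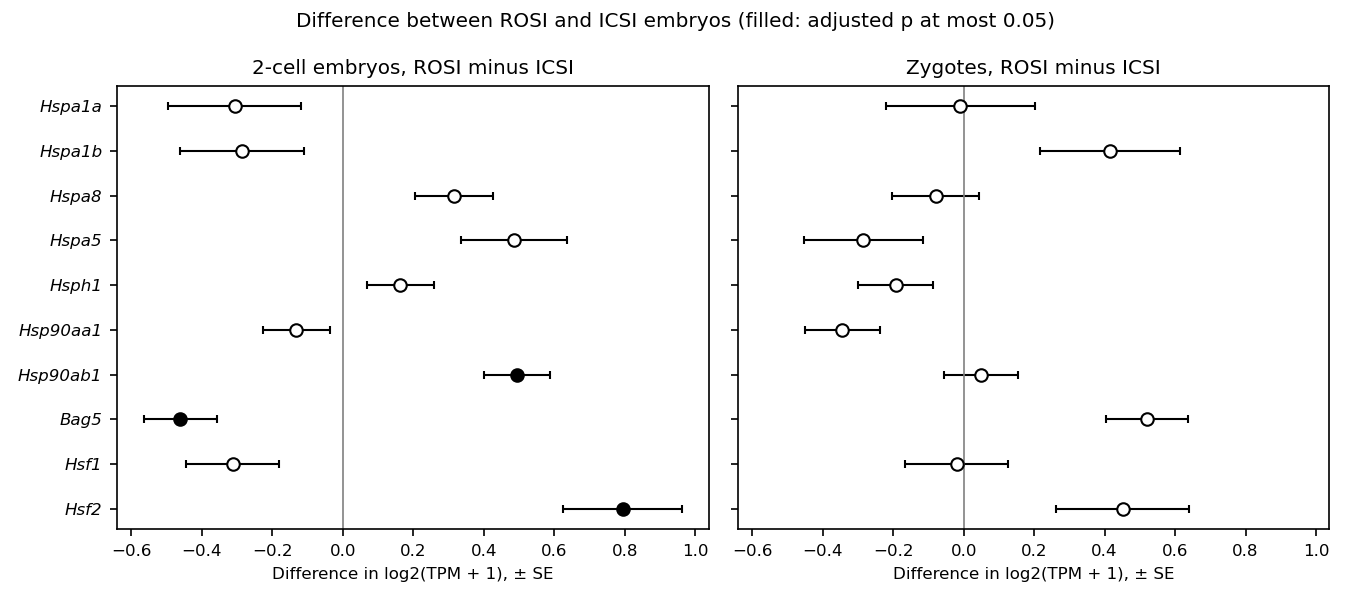
Difference of ROSI minus ICSI in log2(TPM + 1) on the horizontal axis for the 10 genes, in 2-cell embryos (left) and zygotes (right); points are limma estimates, bars are ± SE, and filled points passed an adjusted p of 0.05. Bag5 is at -0.46 in 2-cell embryos and 0.52 in zygotes, and the 3 filled points, Hsp90ab1, Bag5 and Hsf2, are all in 2-cell embryos.

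Set against zygotes, 2-cell embryos differed in most members. In ROSI embryos Bag5, Hspa1a, Hspa8, Hspa5, Hsf2, Hspa1b, Hsph1 and Hsp90ab1 were higher in 2-cell embryos, Hsp90aa1 was lower, and Hsf1 did not pass. In ICSI embryos Bag5, Hspa1a, Hspa1b, Hspa8, Hsf2 and Hsf1 were higher in 2-cell embryos, and Hsp90aa1 was lower. Thus 9 of 10 members passed in ROSI and 7 of 10 in ICSI, where 67.9% and 68.1% of all genes tested did. The share that passed as higher in ROSI was 8 of 10 members against 35.6% of genes, and in ICSI 6 of 10 against 33.0% of genes. As lower, 1 of 10 passed in each, against 32.3% of genes in ROSI and 35.0% in ICSI. The count depended on scaling: in ICSI it was 9 after median-ratio scaling or without the Gm23935 locus, and after quantile normalization it was 10 in ROSI and 10 in ICSI. Over all genes in ICSI, 7725 passed as higher and 7342 as lower after median-ratio scaling, and 7661 and 7274 without the locus. After quantile normalization 6638 and 8129 did in ROSI, and 6695 and 8266 in ICSI. The Gm23935 locus held 12.7% to 23.7% of TPM in ROSI 2-cell embryos and 16.2% to 17.6% in ICSI 2-cell embryos. It held 13.3% and 14.9% in ROSI zygotes and 8.31% to 10.6% in ICSI zygotes. Protein-coding genes held 44.6% to 51.4% of TPM in 2-cell libraries and 65.9% to 71.6% in zygote libraries. TPM sums to a fixed total, so stage differences of single genes depend on these shares. No overlap was seen for 10 of 10 members in ROSI and 7 of 10 in ICSI, against 76.1% and 72.2% of genes.

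On the log2(TPM + 1) scale Bag5 had the largest difference of the 10 members in both kinds of embryo. It rose by 2.92 in ROSI (limma adjusted p = 6.18e-09) and by 3.90 in ICSI (limma adjusted p = 4.42e-10). On mean TPM this was 7.97-fold in ROSI and 16.1-fold in ICSI embryos, while Hspa1a, at lower levels, was 9.10-fold higher in ROSI and 10.95-fold higher in ICSI 2-cell embryos than in zygotes. The Bag5 mean ranked 611th in ROSI 2-cell embryos and 401st in ICSI 2-cell embryos among protein-coding genes, against 5045th in ROSI zygotes and 6060th in ICSI zygotes. Hspa1a rose by 2.47 in ROSI (limma adjusted p = 1.59e-06) and by 2.77 in ICSI (limma adjusted p = 2.37e-07). Hspa1b rose by 0.91 in ROSI (limma adjusted p = 0.00181) and by 1.62 in ICSI (limma adjusted p = 1.1e-05).

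Of the constitutive HSP70 genes, Hspa8 rose by 1.35 in ROSI (limma adjusted p = 2.8e-06) and by 0.96 in ICSI (limma adjusted p = 1.68e-05). Hspa5 rose by 1.12 in ROSI (limma adjusted p = 0.000138), and in ICSI had a difference of 0.35 (limma adjusted p = 0.0612), which became 0.52 without ICSI 2-cell replicate 1 (limma adjusted p = 0.00307). Hsph1 rose by 0.49 in ROSI (limma adjusted p = 0.0018), and in ICSI had a difference of 0.13 (limma adjusted p = 0.235). In ICSI it passed under each of the other scalings, at 0.26 after median-ratio scaling and without the Gm23935 locus (limma adjusted p = 0.0118 for both) and at 0.57 after quantile normalization (limma adjusted p = 4.11e-05). Hsf2 rose by 1.09 in ROSI (limma adjusted p = 0.000374) and by 0.75 in ICSI (limma adjusted p = 0.00223). Hsf1 had a difference of 0.25 in ROSI (limma adjusted p = 0.158), and rose by 0.54 in ICSI (limma adjusted p = 0.00378). After quantile normalization Hsf1 was at 0.78 in ROSI (limma adjusted p = 0.000358) and at 1.10 in ICSI, Hsph1 at 0.87 in ROSI and Hspa8 at 1.49 in ICSI.

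The HSP90 genes went apart. Hsp90aa1 fell by 2.21 in ROSI (limma adjusted p = 2.13e-08) and by 2.43 in ICSI (limma adjusted p = 4.13e-09), and after quantile normalization the differences were -1.23 in ROSI and -1.61 in ICSI. Hsp90ab1 rose by 0.36 in ROSI (limma adjusted p = 0.0107), a call lost without ROSI zygote replicate 1 (limma adjusted p = 0.0693), and was at 1.24 after quantile normalization. In ICSI it had a difference of -0.09 (limma adjusted p = 0.418), which turned to 0.04 after median-ratio scaling or without the Gm23935 locus and to 0.68 after quantile normalization (limma adjusted p = 3.63e-05). The median of all genes in ROSI was 0.19 in this comparison and -0.03 after quantile normalization. Relative to the median of 0.19, Hsp90ab1 was higher by 0.17, Bag5 by 2.73 and Hspa1a by 2.28 in ROSI. All 7 calls in ICSI held in every alternative run, and in ROSI the Hsp90ab1 call was the exception.

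**Figure D3:**
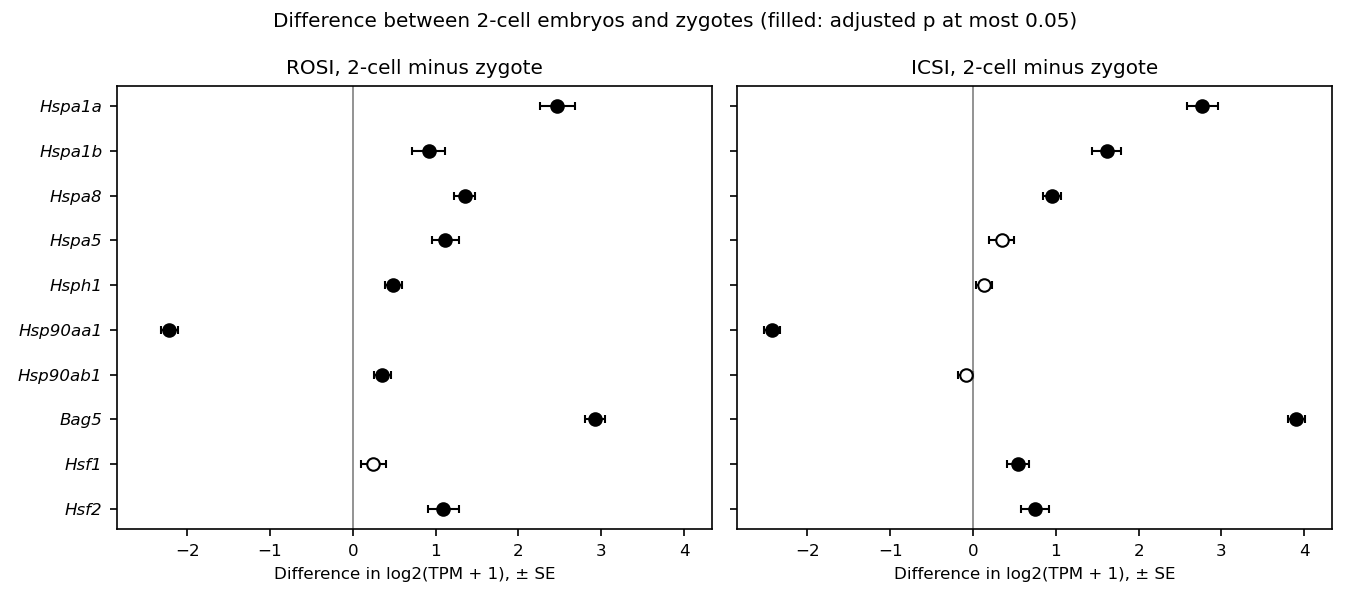
Difference of 2-cell embryos minus zygotes in log2(TPM + 1) on the horizontal axis for the 10 genes, in ROSI (left) and ICSI (right); points are limma estimates, bars are ± SE, and filled points passed an adjusted p of 0.05. Bag5 lies farthest to the right at 2.92 in ROSI and 3.90 in ICSI, and Hsp90aa1 alone lies far to the left at -2.21 and -2.43.

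Whether the change between stages differed between ROSI and ICSI was tested as an interaction. No member passed (limma), where 0.0182% of all genes tested did, and 6 members had an unadjusted p under 0.05, where 15.1% of genes did. The nearest to passing was Bag5, with a difference of -0.98 (SE 0.16, limma adjusted p = 0.064). Hspa5 had 0.77 (limma adjusted p = 0.161), Hsp90ab1 0.44 (limma adjusted p = 0.182) and Hspa1b -0.70 (limma adjusted p = 0.257). Bag5 passed in 5 of the alternatives run, among them median-ratio scaling (-1.13, limma adjusted p = 0.0254). The median of all genes was 0.10 here and -0.01 after median-ratio scaling, and relative to the median of 0.10 Bag5 was at -1.08.

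The balance of the HSP90 forms was compared within libraries, which needs no scaling between them. Hsp90aa1 made up 32.6%, 33.0% and 33.8% of summed HSP90 TPM in ROSI 2-cell embryos and 43.1%, 42.1% and 44.8% in ICSI 2-cell embryos. It made up 76.1% and 73.2% in ROSI zygotes and 78.9%, 80.1% and 79.3% in ICSI zygotes. ROSI libraries were below ICSI libraries at both stages without overlap, and by these values the constitutive form was the larger one in 2-cell embryos. Of the 50-base words of Hsp90aa1, 47.49% also occur in transcripts of other genes, against 3.438% for Hsp90ab1. The size of the shares, and which form was the larger one in 2-cell embryos, are therefore uncertain. The sum of both was 1265 to 1332 TPM in ROSI 2-cell embryos, 1012 to 1182 TPM in ICSI 2-cell embryos, 2606 to 2774 TPM in ROSI zygotes and 2889 to 3459 TPM in ICSI zygotes.

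Hspa1a made up 43.0%, 32.4% and 31.3% of summed Hspa1a and Hspa1b TPM in ROSI 2-cell embryos and 39.4%, 33.3% and 35.3% in ICSI 2-cell embryos. It made up 13.3% and 8.29% in ROSI zygotes and 17.1%, 12.6% and 12.3% in ICSI zygotes. The share was higher in every 2-cell library than in any zygote library, and ROSI and ICSI overlapped within each stage. Of the 50-base words of Hspa1a 60.35%, and of those of Hspa1b 62.31%, also occur in transcripts of another gene. Hspa1a was at only 0.900 to 2.04 TPM in zygotes, so these shares are uncertain. Hsf1 was 10.4, 12.8 and 9.79 times Hsf2 in ROSI 2-cell embryos and 21.4, 29.6 and 23.8 times in ICSI 2-cell embryos. In zygotes it was 19.7 and 22.7 times Hsf2 after ROSI and 34.2, 33.5 and 26.1 times after ICSI. The ratio was lower in ROSI than in ICSI at both stages without overlap, and it was not tested. In 2-cell embryos this had to be so, as Hsf1 and Hsf2 each lay apart there in opposite directions.

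**Figure D4:**
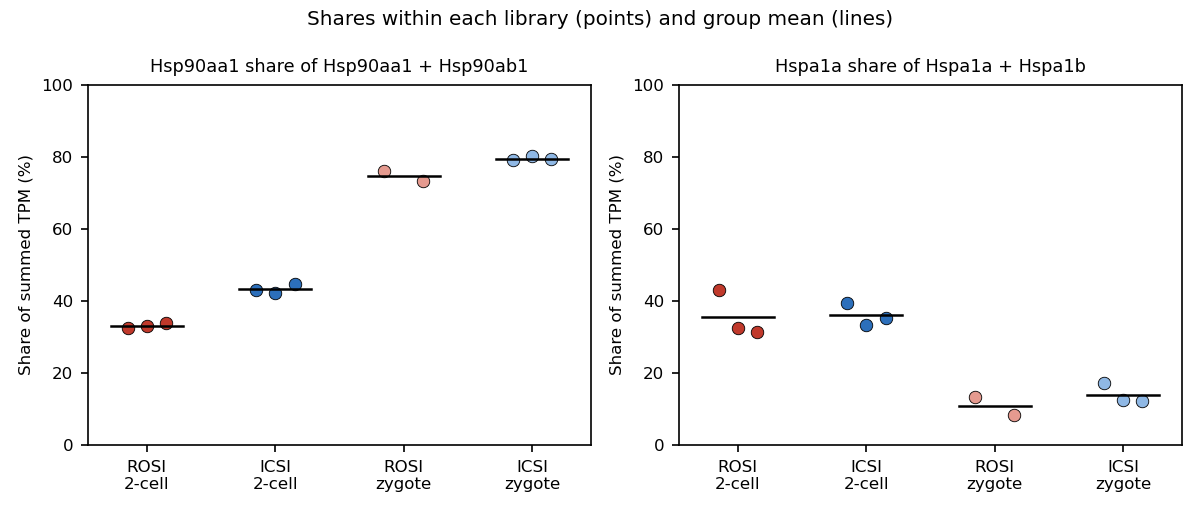
Share of Hsp90aa1 in the summed TPM of Hsp90aa1 and Hsp90ab1 (left) and of Hspa1a in the summed TPM of Hspa1a and Hspa1b (right), in percent on vertical axes of 0 to 100, by library (points) and group mean (lines). The Hsp90aa1 share is 32.6% to 33.8% in ROSI 2-cell embryos and 42.1% to 44.8% in ICSI 2-cell embryos, and the Hspa1a shares of these groups overlap.

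Around the members, 9 lists of chaperones, co-chaperones and stress regulators were described, with 112 genes tested. Some genes are in more than 1 list, and each counts once in the 112. In ROSI against ICSI 2-cell embryos, 13 passed as higher and 4 as lower, against 4.93% and 4.58% of all genes tested, with a median difference of 0.07 over the lists and of 0.04 over all genes. Of 20 HSP90 co-chaperones and family members, 3 rose: Cdc37, which hands kinases to HSP90, by 0.72 (limma adjusted p = 0.0115), Ppid by 0.58 (limma adjusted p = 0.0248) and Rpap3 by 0.43 (limma adjusted p = 0.0168). Of 10 BAG proteins and exchange factors other than Bag5, 3 rose, namely Bag3 by 0.86, Hspbp1 by 0.64 and Bag1 by 0.52, and none fell. These 3 moved opposite to Bag5. Bag3, which links HSP70 to autophagy, averaged 46.7 TPM in ROSI and 25.2 TPM in ICSI 2-cell embryos.

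Of 28 HSP40 proteins, 3 rose and 0 fell. The 3 were Dnajb1, the main inducible HSP40, by 0.69 (limma adjusted p = 0.0152), Dnajc10 by 0.69 and Dnajc2 by 0.54. For this list and each other one, the shares to compare with are the 4.93% of tested genes that rose and the 4.58% that fell. HSP40 genes had a median difference of 0.05, close to the 0.04 of the whole set of tested genes. Dnajb1 averaged 56.9 TPM in ROSI and 34.7 TPM in ICSI 2-cell embryos. Of the 8 other HSP70 and HSP110 genes, Hspa4 rose by 0.71 (limma adjusted p = 0.00651), while Hspa12a fell by 0.77 and Hspa4l fell by 0.42. Among 16 chaperonin and prefoldin genes, the CCT ring subunits Cct4 and Cct2 rose, by 0.57 and 0.48. Hsbp1, which binds and restrains heat shock factors, fell by 0.68 (limma adjusted p = 0.0386), the 1 call among 5 further factors and HSF-binding proteins. Of 25 genes of endoplasmic reticulum folding, only Atf4 passed, and it fell by 0.37, with a list median of -0.16.

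Among 12 common HSF1 targets outside the members, Bag3 and Dnajb1 rose and Hspa4l fell, and the list median was 0.14. These targets are all in the other lists too, so the calls are the same ones as given above. Of 5 small heat shock proteins tested out of 10 listed, Hspb9 passed, with 2.68 to 3.63 TPM in ROSI 2-cell embryos and 0 to 1.03 TPM in ICSI 2-cell embryos. It rose by 1.62 (limma adjusted p = 0.0258) and was named after its values were seen, being under 5 TPM. Hspb9 is known from testis, and the round spermatid markers, which also had higher sums in ROSI 2-cell embryos, were not tested for a part in its difference. In zygotes and in the interaction, 0 of 112 passed (limma), where 0.146% and 0.0182% of all genes did.

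**Figure D5:**
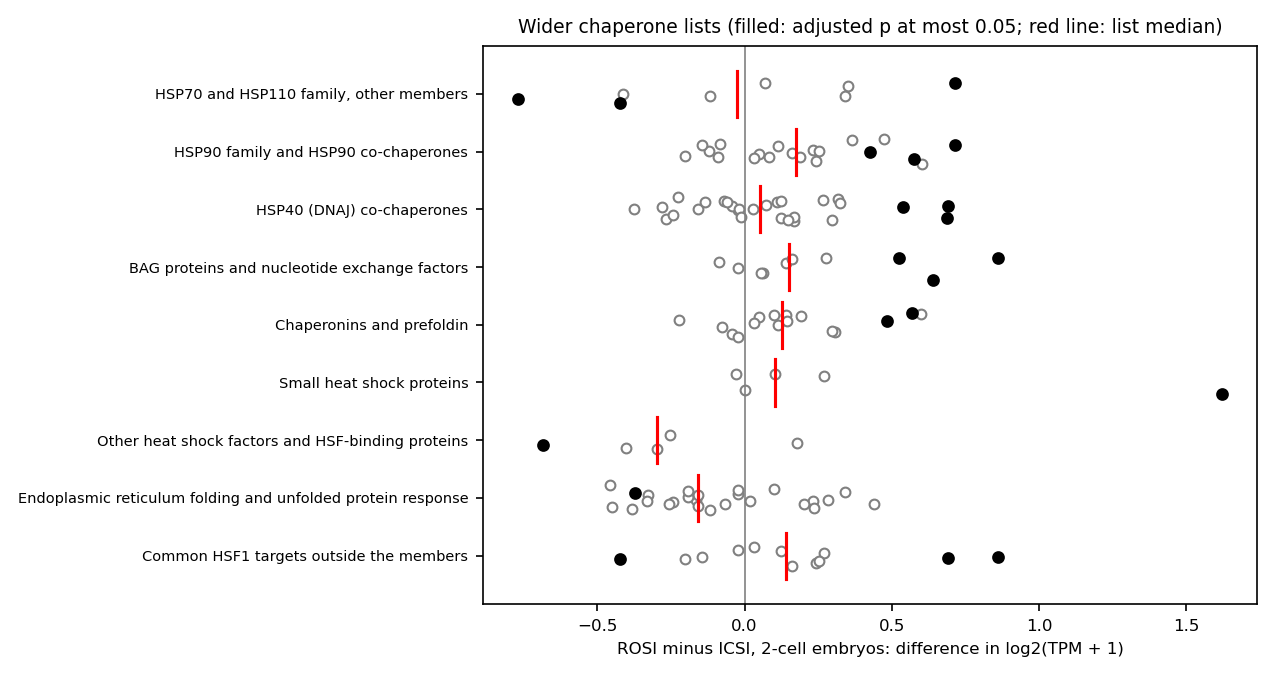
Difference of ROSI minus ICSI 2-cell embryos in log2(TPM + 1) on the horizontal axis for the genes of 9 lists; points are genes with random vertical spread, filled where the limma adjusted p was at most 0.05, and red lines are list medians. The BAG list holds 3 filled points, all to the right of 0, and Hspb9 lies farthest right at 1.62.

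Between stages, more genes of the wider lists fell than rose. In ROSI 35 of 112 rose and 57 fell in 2-cell embryos, where 35.6% of all genes rose and 32.3% fell, with a median of -0.39 against 0.19 for all genes. In ICSI 33 rose and 65 fell, where 33.0% of all genes rose and 35.0% fell, with a median of -0.59 against 0.00 for all genes. Of 28 HSP40 genes, 18 fell in ROSI, where 32.3% of all genes did, and 21 in ICSI, where 35.0% did. Dnajb4 fell by 3.94 in ROSI and fell by 3.79 in ICSI. Dnajb9, a co-chaperone of BiP, rose by 4.41 in ROSI and 4.54 in ICSI, to mean levels of 595 and 664 TPM.

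The BAG list split in both kinds of embryo. Hspbp1 rose by 4.93 in ROSI and 4.34 in ICSI, and Bag3 by 4.11 and 3.52, as Bag5 did, while Bag4 fell by 1.61 in ROSI and fell by 1.46 in ICSI. Among HSP90 co-chaperones Fkbp4 rose by 2.98 in ROSI and 3.04 in ICSI, whereas Nudc fell by 3.05 in ROSI and fell by 3.20 in ICSI, in the direction of Hsp90aa1. The chaperonin subunit Cct6a rose by 4.30 in ROSI and 4.06 in ICSI, and the prefoldin subunit Pfdn4 fell by 5.19 in ROSI and fell by 5.07 in ICSI. Hsf4 rose by 1.62 in ROSI and 2.00 in ICSI, and Hsf5 fell by 2.30 in ROSI and fell by 2.53 in ICSI. Each of these passed in both kinds of embryo, at limma adjusted p of 0.000122 or less.

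Genes with profiles nearest to the members were sought among 8836 candidates, as the root mean square difference of centred log2 values over 11 libraries. For Bag5 they were Adsl (0.19), Snai1 and Slc35e3, for Hspa1a Terf2ip (0.17), Sp140 and Pif1, and for Hspa1b Gtf3c2 (0.19), Ercc4 and Rpph1. For Hspa5 they were Rrbp1 (0.11), Pcmt1 and Myo9a, for Hspa8 Kif11 (0.11), Tdp2 and Ago2, and for Hsph1 Pcf11 (0.068), Trappc8 and Dhx40. For Hsp90ab1 they were Nelfe (0.083), Orc1 and Clta. For Hsf1 they were Ube2d2a (0.051), Fem1b and Foxk2, and for Hsf2 Trpt1 (0.22), Pink1 and Zswim2. Among these 9 members, none was among the 3 nearest of another. The points share libraries and scaling, and this is a description only.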

How the data were processed

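RNA-seq of 11 mouse embryo libraries in 4 groups was taken as the authors deposited it, in 1 table of TPM per gene and library. Per the submitters' processing notes, fastp, Bowtie2, STAR 2.7.4a, featureCounts and the mm10 build were used; their roles, the annotation, the strand setting and filters are not given in the sources used here. The members and gene lists were chosen with earlier results of these data known. Genes that reached 1 TPM in 2 or more libraries were tested on log2(TPM + 1) with limma 3.58.1 in R 4.3.3, as 4 group means over all libraries with a variance trend, so that the groups share 1 estimate of the spread. Each contrast was adjusted by Benjamini-Hochberg over 21938 genes with a threshold of 0.05, and the model was tested on simulated data. A count test was not used, as the values are TPM. TPM times GENCODE M21 exon length gave whole reads (within 0.01) for 88.9% to 91.5% of low values, and from these the depth. At this depth 3 reads of a gene of 2 kb are worth between 0.0512 and 0.396 TPM, depending on the library. Values came from python 3.11.15 with pandas 2.3.3, numpy 2.4.6 and matplotlib 3.10.9.

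From the wider lists the text names genes that passed and reached 5 TPM in the higher group, those with the largest differences first; Hspa14 was left out because 2 entries share its symbol. Nearest profiles were sought among named genes averaging at least 5 TPM. Those of Hsp90aa1 are not reported here. Alternatives covered the pseudocount, the filter, scaling between libraries, the variance model, a replicate block, fits of the 2 groups alone and leaving out each library.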

Additional observations from a re-analysis of the deposited data

Results flagged for a closer look

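For Bag5 and Hspa5, all ROSI libraries lay on one side of the ICSI libraries in 2-cell embryos and on the other side in zygotes. How many of all genes showed this pattern was not counted. Libraries did not overlap for 27.3% of all genes tested in 2-cell embryos and 26.4% in zygotes. Bag5 differed by -0.46 in 2-cell embryos and 0.52 in zygotes on the log2(TPM + 1) scale, and its change between stages was -0.98 in ROSI relative to ICSI (limma adjusted p = 0.064). Hspa5 differed by 0.49 in 2-cell embryos and -0.28 in zygotes, and its change between stages was 0.77 in ROSI relative to ICSI (limma adjusted p = 0.161). Neither passed the test of the difference.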

How the results depend on the processing

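The members passing in 2-cell ROSI against ICSI numbered 3, and 0 with the 2 groups alone. They numbered 5 after median-ratio scaling (Hsf1 and Hspa5 added) and 5 after quantile normalization (Hspa5 and Hspa8 added). The counts over all genes moved too, from 1082 higher and 1005 lower to 49 and 36 with the 2 groups alone. They were 1197 and 2023 after median-ratio scaling, and 1505 and 1758 after quantile normalization. In zygotes 0 passed, and 1 after median-ratio scaling, quantile normalization (Bag5) or array weights (Hsp90aa1). Over all genes, 25 passed as higher and 7 as lower in zygotes. These became 40 and 12 after median-ratio scaling, 71 and 15 after quantile normalization, and 149 and 162 with array weights. For the interaction 0 passed, and 1, Bag5, with array weights, median-ratio scaling, quantile normalization, a minimum of 5 TPM or a pseudocount of 5. Over all genes, 3 passed as higher and 1 as lower for the interaction. In the order of these settings, the counts became 152 and 68, 64 and 180, 100 and 97, 55 and 16, and 71 and 23. Leaving out single libraries gave 2 to 3 members in 2-cell embryos, 0 in zygotes and 0 for the interaction. Over all genes, these fits gave 474 to 952 higher and 444 to 1397 lower in 2-cell embryos. They gave 3 to 77 and 1 to 8 in zygotes, and 0 to 13 and 0 to 24 for the interaction. Bag5 in 2-cell embryos was also lost without the variance trend (limma adjusted p = 0.051) and with array weights (limma adjusted p = 0.0549). With the replicate number as a block, 4 members passed in 2-cell embryos, Hspa5 being added (limma adjusted p = 0.0447), 0 in zygotes, 9 between stages in ROSI and 8 in ICSI. With this block, 904 of all genes passed as higher and 833 as lower in 2-cell embryos, and 4 and 0 in zygotes. Between stages 7588 and 7028 did in ROSI, and 7193 and 7655 in ICSI. The labels do not say that a number pairs libraries, so the numbers were not taken as pairs. Deviations of same-numbered libraries from their group means had correlations between -0.01 and 0.02 in 2-cell embryos. In zygotes they were 0.33 and 0.22 for the same-numbered pairs, and 0.21 for ROSI replicate 2 with ICSI replicate 3. The 2 ROSI zygote libraries deviate in mirror image, so these zygote values are not independent. Signs reversed for differences that had not passed. In zygotes Hspa1a became 0.0095 (pseudocount 0.1), 0.041 (median-ratio scaling), 0.039 (without Gm23935), 0.12 (array weights) and ranged from -0.14 to 0.20 without 1 library, and Hspa8 became 0.0081 (median-ratio scaling), 0.035 (quantile normalization), 0.0011 (without Gm23935) and ranged from -0.17 to 0.016 without 1 library. Hsf1 became 0.068, 0.079, 0.061 and 0.065 under the 3 scalings and array weights and ranged from -0.18 to 0.14 without 1 library, and Hsp90ab1 ranged from -0.0072 to 0.11 without 1 library. Hsp90aa1 in 2-cell embryos became 0.0080 after quantile normalization, and Hsp90ab1 between stages in ICSI 0.040, 0.68 and 0.036 under the 3 scalings. Between stages, the members passing ranged from 8 to 10 in ROSI (9 reported) and from 7 to 10 in ICSI (7 reported). The causes were not tested. Over all genes, those passing ranged from 85 to 3263 in 2-cell embryos (2087 reported), 0 to 311 in zygotes (32 reported) and 0 to 244 for the interaction (4 reported).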
